A study of Arabidopsis thaliana with 17 samples.

Results

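Of the 12,939 clusters of 24 nt siRNAs in the deposited table, 536 (4.14%) lay within 1 Mb of an end of chromosomes 1 to 5 of Arabidopsis thaliana. A cluster was counted when the position in its name, read as its first base in the TAIR10 genome, was at most 1000000 or more than the chromosome length minus 1000000. The 10 ends were unequal. The short-arm ends of chromosomes 2 and 4, which carry the tandem 45S rRNA genes (rDNA), held 175 and 112 clusters, 287 together. The other 8 ends held 249, between 21 at the high-position end of chromosome 1 and 43 at its low-position end. Density was 144 clusters per Mb at the short-arm ends of 2 and 4 and 31.1 per Mb at the other 8 ends. It was 113 per Mb over the rest of these 5 chromosomes, which held 12,366 clusters and includes the zone 1 to 2 Mb from the ends. In that zone density was higher still on the short arms of 2 and 4, at 232 per Mb, and 28.4 per Mb at the other 8 ends.

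Small RNAs were sequenced from flowers of 6 genotypes with 2 biological replicates each. NRPD1-3xF AAA-YPMF, NRPD1-3xF CYC-AAAA and NRPD1-3xF WT plants were nrpd1-3 mutants that carried a FLAG-tagged NRPD1 transgene under its own promoter. Per the paper, T2 plants with strong transgene expression were picked for its immunoprecipitation experiments. It does not say this of the plants sequenced for small RNAs. Whether both sequenced replicates of a transgene came from the same transformed line is also not stated. The transgene had the first 3 residues of its CYC-YPMF motif changed to alanine in AAA-YPMF, the last 4 in CYC-AAAA, and none in NRPD1-3xF WT. The clsy quad plants combined clsy1-7, clsy2-1, clsy3-1 and clsy4-1, the nrpd1-3 plants had no functional NRPD1 and no transgene, and Col-0 was the wild type. Levels are RPKM, a count of 24 nt reads divided by the cluster's length and by all mapped reads of its library, so each value is a share of its library. The reads behind a value are not known from the table and no counting interval can be given.

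NRPD1 is the largest subunit of RNA polymerase IV (Pol IV), which makes short transcripts that RDR2 turns into double-stranded RNA and DCL3 cuts into 24 nt siRNAs. These siRNAs guide DNA methylation of transposons and other repeats. Which loci Pol IV reaches depends on the 4 CLASSY (CLSY) proteins: loci near centromeres rely mostly on CLSY3 and CLSY4, and those farther out on CLSY1 and CLSY2. Chromosome ends in Arabidopsis carry telomere repeats of the unit CCCTAAA, read as TTTAGGG on the other strand, and degenerate copies of this unit continue into the adjoining DNA.

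Some of the clusters nearest the ends showed this repeat directly. The 5 of the 10 nearest clusters that hold a unit in their first 300 bases are given here from the RefSeq copy of TAIR10.1, whose chromosome lengths equal those of TAIR10. They lie at chr1:8-307, chr3:134-433, chr5:1-300, chr2:19697363-19697662 and chr5:26974552-26974851, on the plus strand, with every CCCTAAA or TTTAGGG unit in capitals.
merged_1_8: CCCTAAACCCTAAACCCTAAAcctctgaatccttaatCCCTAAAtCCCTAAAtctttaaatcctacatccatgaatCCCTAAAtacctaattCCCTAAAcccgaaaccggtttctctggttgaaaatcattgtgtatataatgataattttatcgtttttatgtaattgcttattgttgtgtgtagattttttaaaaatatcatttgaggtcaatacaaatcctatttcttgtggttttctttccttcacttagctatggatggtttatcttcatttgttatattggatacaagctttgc
merged_3_134: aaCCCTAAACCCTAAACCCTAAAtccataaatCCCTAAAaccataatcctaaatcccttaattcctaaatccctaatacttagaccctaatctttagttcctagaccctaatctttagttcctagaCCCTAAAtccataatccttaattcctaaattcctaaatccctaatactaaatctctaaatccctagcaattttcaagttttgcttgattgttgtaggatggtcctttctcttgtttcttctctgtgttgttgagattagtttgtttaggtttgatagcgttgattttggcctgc
merged_5_1: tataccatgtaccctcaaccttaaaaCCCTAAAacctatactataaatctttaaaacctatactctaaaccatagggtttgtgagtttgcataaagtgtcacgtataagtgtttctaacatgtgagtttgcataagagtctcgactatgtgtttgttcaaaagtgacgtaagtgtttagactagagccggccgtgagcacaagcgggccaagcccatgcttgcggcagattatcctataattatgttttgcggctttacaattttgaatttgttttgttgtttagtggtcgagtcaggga
merged_2_19697363: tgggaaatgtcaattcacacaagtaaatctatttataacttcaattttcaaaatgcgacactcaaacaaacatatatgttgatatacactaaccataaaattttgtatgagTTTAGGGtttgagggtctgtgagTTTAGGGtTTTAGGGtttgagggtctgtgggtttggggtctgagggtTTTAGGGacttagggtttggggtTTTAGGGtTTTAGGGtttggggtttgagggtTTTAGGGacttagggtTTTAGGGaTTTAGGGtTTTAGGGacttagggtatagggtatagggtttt
merged_5_26974552: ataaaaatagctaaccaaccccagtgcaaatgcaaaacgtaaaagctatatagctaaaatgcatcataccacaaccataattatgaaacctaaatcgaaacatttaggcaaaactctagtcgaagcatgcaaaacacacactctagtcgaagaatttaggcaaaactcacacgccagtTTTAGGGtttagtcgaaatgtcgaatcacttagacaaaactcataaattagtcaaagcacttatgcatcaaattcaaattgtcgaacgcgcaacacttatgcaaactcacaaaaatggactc
The first began with 3 units in a row and held 7, the second held 5 and the third held 1. The fourth held 10 units on the opposite strand, separated by related runs, and the fifth held 1. Their siRNA levels follow with those of the other clusters nearest each end.

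Away from the very ends the repeat was no commoner than elsewhere. A unit on either strand was present in the 300 bases of 28 of 536 clusters near ends (5.22%), against 5.26% of all clusters of chromosomes 1 to 5. At least 3 units were found in 3 clusters near ends (0.56%), all of them printed above, and in 15 of 12,366 elsewhere (0.121%). By the RefSeq annotation at the named position, 91 clusters near ends (17%) lay in a protein-coding gene, 35 of them in an intron, against 10.2% elsewhere. Pseudogenes held 24 (4.48%) near ends and 13.7% elsewhere, and 400 (74.6%) lay in or within 2 kb of a protein-coding gene, against 48.3% elsewhere. The pseudogene share was 6.97% at the short-arm ends of 2 and 4 and 1.61% at the other 8 ends. In the zone 1 to 2 Mb from the ends 11% lay in a protein-coding gene and 9.71% in a pseudogene. There 54.3% lay in or within 2 kb of a protein-coding gene. The named position was the only coordinate used, so these classes describe 1 point of each cluster. Of the 24-base words in the 300 bases, a median of 91.3% per cluster at the short-arm ends of 2 and 4 occurred once in the 5 chromosomes, against 74.4% at the other 8 ends and 81.6% over all clusters of these chromosomes.

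Clusters near ends gave more 24 nt siRNA than the rest in the genotypes with intact NRPD1, and next to none in the mutants. Their median was 0.20 and 0.24 RPKM in NRPD1-3xF AAA-YPMF, 0.11 and 0.08 in NRPD1-3xF CYC-AAAA, 0 and 0.07 in clsy quad, 0 in both nrpd1-3 libraries, 19.75 and 18.42 in NRPD1-3xF WT, and 21.53 and 19.8 in Col-0. Over the rest of chromosomes 1 to 5 the median was 13.25 and 12.01 RPKM in NRPD1-3xF WT and 11.46 and 10.68 in Col-0, and at most 0.19 in any mutant library. The higher level was not particular to the last 1 Mb. In the zone 1 to 2 Mb from the ends the Col-0 medians were 16.25 and 15.5 RPKM. At the other 8 ends that zone had 28.54 and 27.64 RPKM in Col-0, against 24.14 and 21.86 within 1 Mb. In NRPD1-3xF WT it had 22.89 and 22.21 there, against 18.32 and 17.44. On the short arms of 2 and 4 the order was reversed, with Col-0 medians of 11.76 and 11.31 in the zone and 19.64 and 18.41 within 1 Mb. On the log2(RPKM + 1) scale, the median near ends exceeded that of the rest by 0.56 ± 0.025 in NRPD1-3xF WT and by 0.84 ± 0.016 in Col-0 (SD, n = 2 each). The gap was thus smaller in NRPD1-3xF WT by 0.28, more than the spread of the replicates. An exact permutation test over the 4 libraries gave p = 0.33, two-sided, which is the smallest p that 2 against 2 allows.

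**Figure D1:**
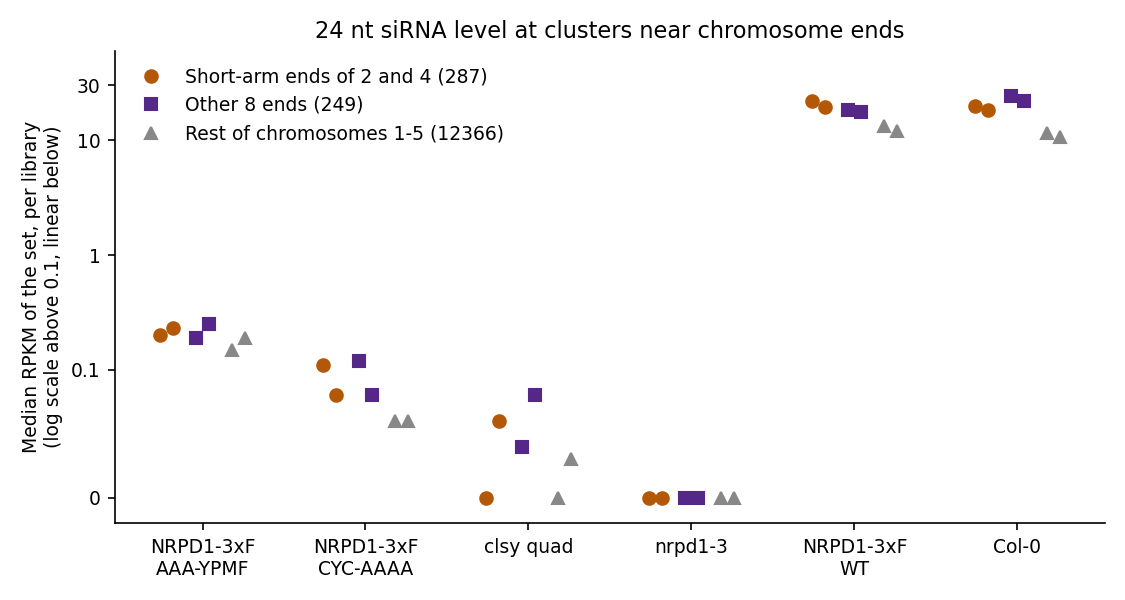
Median RPKM of each set of clusters in each library, with the 6 genotypes on the horizontal axis and 2 points per genotype, 1 for each replicate; the vertical axis is logarithmic above 0.1 and linear below. Both groups of ends lie above the rest of the chromosomes in NRPD1-3xF WT and Col-0, and every mutant median is under 0.3 RPKM.

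All 4 mutants lost nearly all siRNA at the ends. Per the paper, the clusters were identified in earlier work and sorted by their dependence on the CLSY proteins. That choice favours presence in Col-0 and loss in these mutants. A cluster was called when limma gave a change of at least 2-fold on the log2(RPKM + 1) scale with an adjusted p under 0.01, over all 12,939 clusters. In NRPD1-3xF AAA-YPMF 528 of 536 clusters near ends fell against Col-0, beside 97.3% of all clusters tested. In NRPD1-3xF CYC-AAAA 529 fell, beside 97.8% of all. In clsy quad 528 fell, beside 97.9%, and in nrpd1-3 527 fell, beside 97.8%. These 4 comparisons share the Col-0 libraries. In each mutant 2 clusters near ends rose. The share of all clusters that rose was 0.085% in NRPD1-3xF AAA-YPMF, 0.108% in NRPD1-3xF CYC-AAAA, 0.085% in clsy quad and 0.0927% in nrpd1-3. The median log2 change near ends was -4.04 in NRPD1-3xF AAA-YPMF, -4.20 in NRPD1-3xF CYC-AAAA, -4.32 in clsy quad and -4.31 in nrpd1-3, where the medians of all clusters were -3.31 in NRPD1-3xF AAA-YPMF, -3.45 in NRPD1-3xF CYC-AAAA and -3.53 in both clsy quad and nrpd1-3. Mutant values were near 0 and 1 was added to each RPKM, so such a change mostly restates the Col-0 level. Col-0 was higher near ends, so the larger median changes there do not show a deeper loss. Both groups of ends took part in the loss. The short-arm ends of 2 and 4 had 282 of 287 clusters lower in NRPD1-3xF AAA-YPMF and 283 in each of the other 3 mutants, and the other 8 ends had 246 of 249 in NRPD1-3xF AAA-YPMF and NRPD1-3xF CYC-AAAA, 245 in clsy quad and 244 in nrpd1-3.

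Summed over the 536 clusters, the siRNA left was 1.37% ± 0.0672 of Col-0 in NRPD1-3xF AAA-YPMF, 1.12% ± 0.031 in NRPD1-3xF CYC-AAAA, 0.759% ± 0.0532 in clsy quad and 0.817% ± 0.109 in nrpd1-3 (SD, n = 2 each). Just 2 clusters held 30.4% of that sum in NRPD1-3xF AAA-YPMF, 51.5% in NRPD1-3xF CYC-AAAA, 41.1% in clsy quad and 51.3% in nrpd1-3. Without them 0.953% was left in NRPD1-3xF AAA-YPMF, 0.544% in NRPD1-3xF CYC-AAAA, 0.449% in clsy quad and 0.398% in nrpd1-3. In the rest of chromosomes 1 to 5 the sums were 5.5% of Col-0 in NRPD1-3xF AAA-YPMF, 7.53% in NRPD1-3xF CYC-AAAA, 5.05% in clsy quad and 6.8% in nrpd1-3, but there a single cluster gave 10512 of the mean sum of 18509 RPKM in NRPD1-3xF AAA-YPMF. By median the sets were alike in having almost no siRNA left. In nrpd1-3, 307 and 279 of the 536 clusters were listed at 0, against 0 and 1 in Col-0.

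What was left was small at every end. It ranged in NRPD1-3xF AAA-YPMF from 0.494% ± 0.143 of Col-0 at the low-position end of chromosome 3 to 1.89% ± 0.0705 at the high-position end of chromosome 4, and in nrpd1-3 from 0.207% ± 0.0342 to 1.98% ± 0.359 at the same 2 ends. The high value on chromosome 4 came with merged_4_18087176, described next. At the short-arm ends of 2 and 4 together 1.41% ± 0.109 was left in NRPD1-3xF AAA-YPMF and 0.698% ± 0.0537 in nrpd1-3, and at the other 8 ends 1.32% ± 0.0245 was left in NRPD1-3xF AAA-YPMF and 0.941% ± 0.166 in nrpd1-3.

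Only merged_2_818861 and merged_4_18087176 rose near the ends in any of the 4 mutants, and they rose in all 4. The first lies 819 kb from the short-arm end of chromosome 2, in an exon of the long non-coding RNA gene AT2G04345. It measured 55.85 and 54.46 RPKM in NRPD1-3xF AAA-YPMF, 72.15 and 75.87 in NRPD1-3xF CYC-AAAA, 35.99 and 36.46 in clsy quad, 41.17 and 45.25 in nrpd1-3, 14.89 and 14.42 in NRPD1-3xF WT, and 12.74 and 12.48 in Col-0. Every mutant library was above every library with intact NRPD1. The log2 change against Col-0 was 2.46 ± 0.074 (SE) in NRPD1-3xF CYC-AAAA, with an adjusted p of 6.67e-06, and 1.70 ± 0.078 in nrpd1-3, with 7.95e-05.

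The second, merged_4_18087176, lies 498 kb from the high-position end of chromosome 4, in an intron of the protein-coding gene AT4G38760. It measured 31.55 and 28.51 RPKM in NRPD1-3xF AAA-YPMF, 40.84 and 49.74 in NRPD1-3xF CYC-AAAA, 29.73 and 25.84 in clsy quad, 37.19 and 49.16 in nrpd1-3, 12.53 and 11.67 in NRPD1-3xF WT, and 10.89 and 8.52 in Col-0. The mutant libraries again did not overlap the others. Both clusters were picked by their calls against Col-0, which favours such a separation from Col-0. Its log2 change was 1.54 ± 0.158 in NRPD1-3xF AAA-YPMF and 2.04 ± 0.199 in nrpd1-3, with an adjusted p of 0.000284 in NRPD1-3xF AAA-YPMF and 0.000966 in nrpd1-3. For both clusters a higher RPKM is a larger share of a library from which most 24 nt siRNA was missing, and whether more molecules were made was not tested. With either Col-0 replicate left out, neither was called in nrpd1-3 or clsy quad and 1 was called in NRPD1-3xF AAA-YPMF and in NRPD1-3xF CYC-AAAA, although the nrpd1-3 log2 change stayed between 1.68 and 2.20.

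A perfect inverted repeat lies within 1 kb of the named position of merged_1_512587, one of the 5 clusters near ends with the highest mean RPKM in NRPD1-3xF AAA-YPMF. Its arms of 49 bases, in capitals with 10 flanking bases on each side, stand at chr1:512685-512753 and chr1:513074-513142 on the plus strand of TAIR10.1, flanks included. The end of the cluster is not known, so the arms may lie inside it. This repeat is shown as the shortest found at these 5 clusters.
merged_1_512587 left arm: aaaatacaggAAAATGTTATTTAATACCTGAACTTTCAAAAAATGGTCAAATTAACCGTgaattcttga
merged_1_512587 right arm: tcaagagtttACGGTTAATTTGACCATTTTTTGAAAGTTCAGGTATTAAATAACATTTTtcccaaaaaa
Perfect inverted repeats of at least 25 bases within 1 kb on each side of the named position occurred at 21 of 536 clusters near ends (3.92%) and at 3.3% of all clusters of chromosomes 1 to 5. Of the 5 clusters highest in NRPD1-3xF AAA-YPMF, merged_4_18087176 also had one, with arms of 91 bases. None was found at merged_2_818861, merged_3_22537108 or merged_1_599472. The search was chosen after the levels were seen and is a description. Whether such repeats bear on the siRNA left was not tested.

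The 5 clusters with the highest mean RPKM in NRPD1-3xF AAA-YPMF were the 2 that rose and 3 others, all 3 in protein-coding genes. In an exon of AT1G02470, merged_1_512587 kept 8.42 and 7.48 RPKM in NRPD1-3xF AAA-YPMF, 11.66 and 10.43 in NRPD1-3xF CYC-AAAA, 7.49 and 8.22 in clsy quad and 7.55 and 10.23 in nrpd1-3, against 68.41 and 60.65 in NRPD1-3xF WT and 60.13 and 58.43 in Col-0. It fell in every mutant, by 2.75 ± 0.121 on the log2 scale in NRPD1-3xF AAA-YPMF (adjusted p = 8.47e-06). In an intron of AT3G60960, merged_3_22537108 had 6.33 and 4.37 RPKM in NRPD1-3xF AAA-YPMF and 6.28 and 8.01 in nrpd1-3, against 17.45 and 22.14 in NRPD1-3xF WT and 25.54 and 27.39 in Col-0. It too fell in every mutant, by 2.13 ± 0.183 in NRPD1-3xF AAA-YPMF (adjusted p = 0.000134).

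The remaining one, merged_1_599472 in an exon of AT1G02740, was called in none of the 4 mutants. It had 6.16 and 8.85 RPKM in NRPD1-3xF AAA-YPMF, 9.47 and 7.04 in NRPD1-3xF CYC-AAAA, 9.68 and 8.48 in clsy quad, 8.02 and 12.6 in nrpd1-3, 6.82 and 6.06 in NRPD1-3xF WT, and 13.27 and 8.68 in Col-0. Its log2 change was -0.49 ± 0.258 in NRPD1-3xF AAA-YPMF and -0.09 ± 0.311 in nrpd1-3, neither of which passed the test. Every mutant range overlapped that of Col-0. It was 1 of 7 clusters near ends called lower in none of the 4 mutants, the others being the 2 that rose, 3 at the short-arm end of chromosome 2 with Col-0 means of at most 1.135 RPKM, and merged_3_22583227, which had reads in 1 of 2 Col-0 libraries. In all, 526 clusters were called lower in all 4 mutants.

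**Figure D2:**
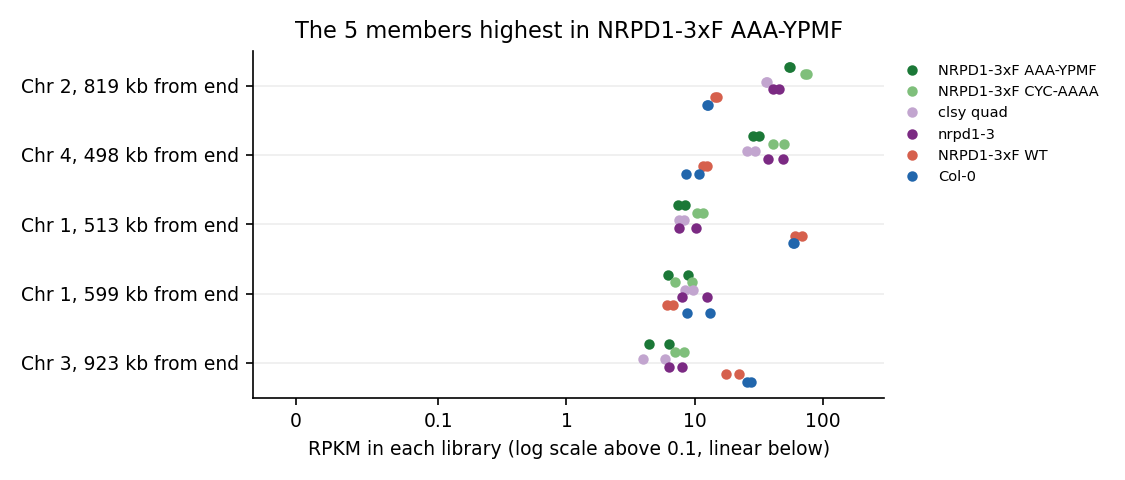
RPKM in each library (horizontal axis, logarithmic above 0.1) of the 5 clusters near chromosome ends with the highest mean in NRPD1-3xF AAA-YPMF, 1 cluster per row and 12 points per row coloured by genotype. In the upper 2 rows all 8 mutant libraries, at 25.84 RPKM or more, lie right of NRPD1-3xF WT and Col-0; in the row at 599 kb from the end of chromosome 1 the genotypes mix.

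Between mutants no cluster near an end was called in any of 4 comparisons, and limma called 0 of all 12,939 clusters in each. At an unadjusted p under 0.05, NRPD1-3xF AAA-YPMF was higher than nrpd1-3 at 157 clusters near ends (29.3%) and lower at 3, where 36.2% of all clusters were higher and 0.479% lower. NRPD1-3xF CYC-AAAA was higher than nrpd1-3 at 56 (10.4%) and lower at 7, where 12.2% of all were higher and 0.904% lower. The clsy quad plants were higher than nrpd1-3 at 21 (3.92%) and lower at 3, where 3.93% were higher and 1.41% lower. NRPD1-3xF AAA-YPMF was higher than NRPD1-3xF CYC-AAAA at 92 (17.2%) and lower at 11, where 19.4% were higher and 1.14% lower. The median log2 difference near ends was 0.19 for NRPD1-3xF AAA-YPMF over nrpd1-3, 0.04 for NRPD1-3xF CYC-AAAA over nrpd1-3, 0 for clsy quad over nrpd1-3 and 0.12 for NRPD1-3xF AAA-YPMF over NRPD1-3xF CYC-AAAA. In a fit over all 12 libraries, 10 clusters near ends were called higher in NRPD1-3xF AAA-YPMF than in nrpd1-3. The share of all clusters called in that fit is not given here, so this count cannot be set against it. These differences lay at very low levels: 89.2% of the clusters near ends were under 1 RPKM in both NRPD1-3xF AAA-YPMF libraries, against 97.4% in both nrpd1-3 libraries.

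With intact tagged NRPD1, siRNA was present at most clusters near ends, and more clusters were called below Col-0 than above it. In NRPD1-3xF WT against Col-0, 72 of 536 clusters near ends fell (13.4%), beside 7.76% of all clusters, and 6 rose (1.12%), beside 5.46% of all. Over all clusters the median log2 change was 0.35, so that NRPD1-3xF WT values were generally higher than Col-0, and near ends it was 0.18. With the libraries scaled to the same median, 77 clusters near ends were lower and 4 higher. With a pseudocount of 0.1, 18 were higher. Shares of all clusters are not given for these 2 settings, so the counts show only how far the main counts moved. Both NRPD1-3xF WT libraries were below both Col-0 libraries at 156 clusters near ends (29.1%), beside 18.5% of all, and above both at 273 (50.9%), beside 66.6% of all. In sum, NRPD1-3xF WT had 82.8% ± 6.11 of the Col-0 level near ends and 92.6% ± 5.49 in the rest of chromosomes 1 to 5 (SD, n = 2). Without the highest 1% of the clusters near ends the value near ends was 90.3%.

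The share of clusters that fell was close to that of all clusters (7.76%) at the rDNA-bearing ends and above it at the other 8, and the share that rose was below that of all clusters (5.46%) at both. At the short-arm ends of 2 and 4, 24 of 287 clusters fell in NRPD1-3xF WT (8.36%) and 4 rose (1.39%), and at the other 8 ends 48 of 249 fell (19.3%) and 2 rose (0.803%). The next zone, 1 to 2 Mb from the ends, showed the same division, with 29 of 463 lower (6.26%) and 24 higher (5.18%) on the short arms of 2 and 4, and 42 of 227 lower (18.5%) and 3 higher (1.32%) at the other 8 ends. The order of the 2 groups turned round between genotypes. In NRPD1-3xF WT the median log2 level of the short-arm ends of 2 and 4 exceeded that of the other 8 ends by 0.24 and 0.14, whereas in Col-0 it was lower, at -0.28 and -0.24. The libraries of the 2 genotypes did not overlap in this difference, which was larger by 0.45 in NRPD1-3xF WT, and the exact permutation test again gave its smallest possible p of 0.33. In the mutants the mean difference lay between -0.04 and 0.

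**Figure D3:**
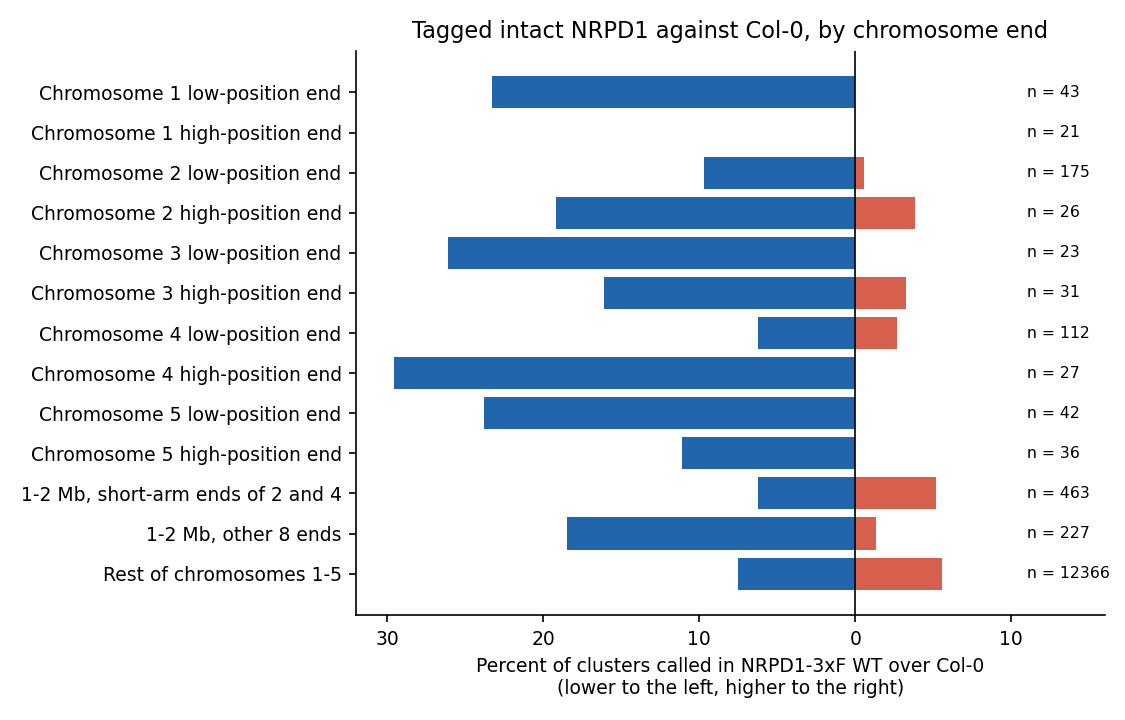
Percent of clusters called lower (bars to the left) or higher (bars to the right) in NRPD1-3xF WT than in Col-0 at each of the 10 ends, in the zone 1 to 2 Mb from the ends and in the rest of chromosomes 1 to 5, with the number of clusters beside each row. The low-position ends of 2 and 4, at 9.71% and 6.25% lower, lie near the 7.54% of the rest, and 7 of the other 8 ends lie above it.

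Single ends spread widely. The share called lower in NRPD1-3xF WT was 29.6% at the high-position end of chromosome 4 (8 of 27), 26.1% at the low-position end of chromosome 3 (6 of 23), 23.8% at the low-position end of chromosome 5 (10 of 42) and 23.3% at that of chromosome 1 (10 of 43). At the high-position end of chromosome 1 none of 21 clusters was called in either direction with limma, and at an unadjusted p under 0.05 it had 3 lower, beside 15.6% of all clusters, and 9 higher, beside 57.8% of all. The summed level in NRPD1-3xF WT was 52.6% ± 2.87 of Col-0 at the high-position end of chromosome 4 and 106% ± 10.6 at the high-position end of chromosome 1 (SD, n = 2 each). With 21 to 43 clusters at each of these ends, a few high clusters set such a sum.

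**Figure D4:**
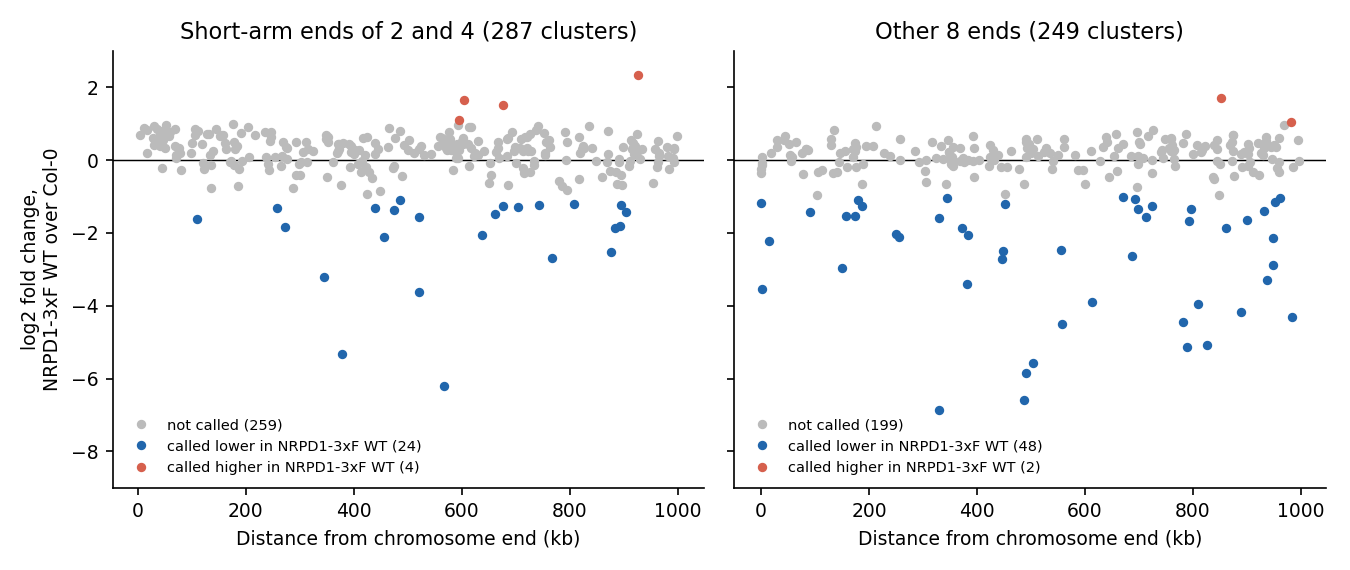
Log2 fold change of NRPD1-3xF WT over Col-0 (vertical axis) against distance from the chromosome end in kb (horizontal axis), 1 point per cluster, with the short-arm ends of 2 and 4 on the left and the other 8 ends on the right; coloured points passed the call. There are 24 called lower on the left, none of them within 100 kb of the end, and 48 on the right.

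The 72 clusters that fell in NRPD1-3xF WT were high in Col-0. Their median of genotype means was 7.43 RPKM in NRPD1-3xF WT and 37.59 in Col-0, where the 458 clusters not called had medians of 21.48 in NRPD1-3xF WT and 19.06 in Col-0. In NRPD1-3xF WT 22 of the 72 were under 1 RPKM. The 6 that rose had medians of 17.06 RPKM in NRPD1-3xF WT and 4.18 in Col-0. Both lists were made from these same values. That favours high Col-0 levels among clusters that fell and low ones among those that rose. The medians therefore describe the lists and are not a separate result. Among the 72, 10 lay in protein-coding genes (13.9%), 1 in a pseudogene (1.39%) and 6 in non-coding RNA genes (8.33%), against 17.5%, 5.02% and 1.97% of the 458 not called. Some of the 72 lay close together. Linked at distances of up to 20 kb, they formed 52 groups, of which 11 held more than 1 cluster and 31 clusters in all. The largest groups, on the short arm of chromosome 2, had 5 called of 12 clusters in 26.5 kb and 4 of 9 in 45.4 kb. A smaller group on chromosome 4 had 3 of 3 in 12.7 kb. Clusters were dense at the short-arm ends of 2 and 4 (144 per Mb), and no background for the linking was computed.

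The 5 largest losses left at most 0.19 RPKM in NRPD1-3xF WT. Between genes at 329 kb from the high-position end of chromosome 3, merged_3_23130733 had 0.11 and 0 RPKM in NRPD1-3xF WT, against 111.66 and 133.36 in Col-0. It was at 0 in both libraries of NRPD1-3xF AAA-YPMF, NRPD1-3xF CYC-AAAA and nrpd1-3, and at 0.4 and 0.16 RPKM in clsy quad. The log2 change was -6.87 ± 0.137 (SE), with an adjusted p of 5.05e-18. On chromosome 4, merged_4_566797, 120 bp from MPK4, a mitogen-activated protein kinase gene, had 0.19 and 0 RPKM in NRPD1-3xF WT, against 80.38 and 78.05 in Col-0.

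A run of 3 lost clusters stood on chromosome 5. There merged_5_486720, 247 bp from MYB3R-5, a MYB transcription factor gene, had 0.06 and 0 RPKM in NRPD1-3xF WT, against 98.93 and 98.06 in Col-0. Its neighbour merged_5_491538, near AT5G02340, had 0.16 and 0.06 RPKM, against 60.29 and 65.25. The third, merged_5_503107, near AT5G02370, had 0.11 and 0.13 RPKM, against 53.21 and 52.24. These 3 starts span 16.4 kb, and 4 clusters near the end lie in that span. The log2 changes were -6.60, -5.85 and -5.58, each with an SE under 0.14.

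The 5 largest rises in NRPD1-3xF WT were smaller and lay on chromosomes 2 and 4. The largest, merged_4_926074, measured 18.27 and 16.39 RPKM in NRPD1-3xF WT, against 3.06 and 2.23 in Col-0, a log2 change of 2.34 ± 0.144 (adjusted p = 6.88e-11). Next to AT2G45750, merged_2_18845820 measured 12.7 and 12.01 RPKM against 3.02 and 3.19. On chromosome 4, 2 neighbours rose near the genes UMAMIT30 and UMAMIT31, members of an amino acid transporter family: merged_4_604352 measured 12.71 and 9.38 RPKM against 2.57 and 3.01, and merged_4_595061 measured 88.32 and 60.48 against 35.13 and 31.95. In an intron of AT2G02520, merged_2_677502 measured 16.2 and 17.37 RPKM in NRPD1-3xF WT, against 5.74 and 4.77 in Col-0. With the libraries scaled to the same median, or without NRPD1-3xF WT replicate 1, the log2 change of merged_4_595061 was 0.93 or 0.83 and was not called. In all 5 the libraries of the 2 genotypes were apart, which picking called rises from these same libraries favours. All 5 were under 1 RPKM in every mutant library.

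The cluster nearest each end was present in Col-0 at all 10 ends. So were nearly all clusters, with 4 and 3 of 12,939 listed at 0 in the Col-0 libraries. At the clusters printed above, which hold 1 or more telomere units, NRPD1-3xF WT ranged from little changed to nearly absent. At the first bases of chromosome 1, merged_1_8 had 30.6 and 27.17 RPKM in NRPD1-3xF WT, against 34.29 and 33.93 in Col-0, and the difference was not called. At the first base of chromosome 5, merged_5_1 had 22.99 and 20.41 RPKM, against 29.23 and 27.21, also not called. At chromosome 3, merged_3_134 fell to 21.86 and 19.33 RPKM in NRPD1-3xF WT, against 47.59 and 48.68 in Col-0, a log2 change of -1.19 ± 0.117 (adjusted p = 7.8e-08).

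The lowest of the 10 in NRPD1-3xF WT was merged_2_19697363, 926 bp from the high-position end of chromosome 2, with 10 repeat units. It fell to 1.16 and 0.83 RPKM in NRPD1-3xF WT, against 23.29 and 20.73 in Col-0, a log2 change of -3.53 ± 0.141 (adjusted p = 8.81e-14). Both NRPD1-3xF AAA-YPMF libraries and both nrpd1-3 libraries had 0 RPKM there. Of its 24-base words 98.6% occur once in the 5 chromosomes.

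At both rDNA-bearing ends the nearest cluster was low in Col-0. On chromosome 2, merged_2_10830, in the pseudogene AT2G01022, had 5.94 and 4.89 RPKM in NRPD1-3xF WT, against 2.38 and 2.59 in Col-0. On chromosome 4, merged_4_3524, in an intron of the DNA repair gene BRCA2(IV), had 12.1 and 9.21 RPKM, against 6.14 and 6.11. On the log2(RPKM + 1) scale their changes of 0.88 ± 0.142 and 0.70 ± 0.143 were under the 2-fold limit of a call, although the libraries were apart. At such low levels the added 1 makes a change smaller than that of the RPKM itself. At the high-position end of chromosome 5, merged_5_26974552 had 18.62 and 17.08 RPKM in NRPD1-3xF WT, against 20.52 and 19.21 in Col-0, and was not called. The other 3 nearest clusters were not called either, with log2 changes between -0.09 and 0.58. The one at the high-position end of chromosome 3, merged_3_23203506, stood 256 kb from the end, and the table holds no cluster beyond it.

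In the mutants the 10 nearest clusters had at most 0.97 RPKM. The highest values were 0.88 and 0.97 in NRPD1-3xF AAA-YPMF at merged_1_8, where NRPD1-3xF CYC-AAAA had 0.3 and 0.8, clsy quad 0.23 and 0.37, and nrpd1-3 0.34 and 0.6. All 10 fell in each mutant against Col-0.

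**Figure D5:**
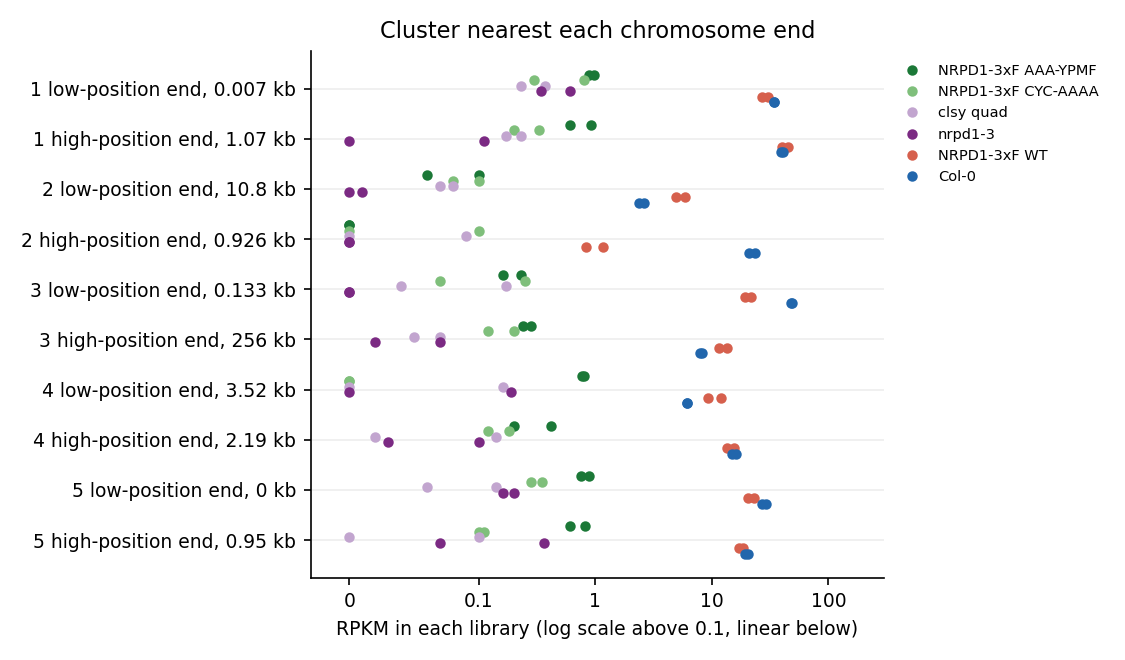
RPKM in each library (horizontal axis, logarithmic above 0.1) of the cluster nearest each of the 10 chromosome ends, 1 row per end with its distance in kb and 12 points per row coloured by genotype. NRPD1-3xF WT lies among or near the Col-0 points in most rows, right of them at the low-position ends of 2 and 4, and far left of them at the high-position end of 2, at 0.83 to 1.16 RPKM against 20.73 to 23.29.

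The low level at the end of chromosome 2 extended over its first 50 kb. The 8 clusters there had a median of 3.065 ± 0.453 RPKM in NRPD1-3xF WT and 1.518 ± 0.202 in Col-0 (SD, n = 2 library medians). In the first 50 kb of chromosome 4 the 8 clusters had 12.66 ± 1.39 RPKM in NRPD1-3xF WT and 8.455 ± 0.304 in Col-0, and at the other 8 ends 13 clusters had 20.59 ± 1.79 in NRPD1-3xF WT and 28.22 ± 1.43 in Col-0. NRPD1-3xF WT was above Col-0 in both libraries at all 8 clusters of chromosome 2 and at 7 of 8 on chromosome 4, and none of these 16 was called. Their summed RPKM in NRPD1-3xF WT was 195% ± 21.4 of Col-0 on chromosome 2 and 146% ± 19.1 on chromosome 4 (SD, n = 2). The 1 added to each RPKM before the test made changes at these low levels smaller. At an unadjusted p under 0.05 limma had all 8 of chromosome 2 and 6 of 8 on chromosome 4 higher, where 57.8% of all clusters were higher at that threshold and 66.6% had both NRPD1-3xF WT libraries above both Col-0 libraries. The chromosome 2 sequence was repetitive: a median of 15.5% of the 24-base words occurred once, against 80.1% in the first 50 kb of chromosome 4 and 92.8% at the other 8 ends. The authors' pipeline gave each read that fits several places to 1 of them, and whether that choice moved these levels was not tested. The 50 kb limit was chosen after the levels were seen.

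The strongest cluster of each end in Col-0 was called lower in NRPD1-3xF WT at 5 of 10 ends. Of the clusters near ends 13.4% were called lower, and of all clusters 7.76%. These 10 were picked by their Col-0 level, which favours a fall, so the count is a description only. The highest of all was merged_4_17637163, 762 bp from AT4G37530, at 146.49 and 127.29 RPKM in NRPD1-3xF WT and 641.77 and 581.68 in Col-0. It fell by 2.15 ± 0.08 on the log2 scale (adjusted p = 3.25e-14). On the short arm of chromosome 4, merged_4_272189 measured 120.38 and 108.78 RPKM in NRPD1-3xF WT and 431.72 and 396.49 in Col-0. Beside ARP7, a gene for an actin-related protein, merged_3_22476518 kept 5.66 and 5.53 RPKM in NRPD1-3xF WT, against 127.74 and 132.68 in Col-0. At merged_1_670532 NRPD1-3xF WT had 244.25 and 236.65 RPKM, against 504.78 and 474.23, and its log2 change of -1.02 stood at the edge of a call: it was not called in the fit over all 12 libraries (-1.02), without Col-0 replicate 1 (-0.98) or without NRPD1-3xF WT replicate 2 (-1.0). At merged_2_19353766 it had 131.69 and 133.57, against 272.59 and 277.58, a log2 change of -1.05.

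The other 5 strongest clusters were not called. On the short arm of chromosome 2, merged_2_786688, near IQD29, a gene for a calmodulin-binding protein, had 230.55 and 226.19 RPKM in NRPD1-3xF WT, against 393.77 and 357.78 in Col-0, a log2 change of -0.71. At merged_5_765762 the genotypes overlapped, with 144.65 and 130.3 RPKM in NRPD1-3xF WT and 136.8 and 131.55 in Col-0. At merged_5_26414985 NRPD1-3xF WT was above, at 137.04 and 130.58 RPKM against 96.69 and 111.5. All 10 were at most 2.56 RPKM in every mutant library, a value reached at merged_4_17637163 in NRPD1-3xF AAA-YPMF.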

How the data were processed

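Small RNA libraries of flowers from 6 genotypes, 2 biological replicates each, were analysed and 5 further libraries of flower buds were not. Per the study's methods, adapters were removed by the authors (cutadapt 1.18), ShortStack placed reads on TAIR10 with up to 1 mismatch and assigned each multi-mapped read to 1 place (fractional-seeded mode), alignments were filtered in bamtools, and HOMER 4.10 counted 24 nt reads over the 12,939 clusters. The deposited values are RPKM with 2 decimals, not log transformed. Whether molecular identifiers were used to remove duplicates is not given in the sources used here.

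Every library column was matched to a sample by its title. Values were taken to log2(RPKM + 1), and limma 3.58.1 (R 4.3.3, variance trend on) was run for every comparison on its 4 libraries, with Benjamini-Hochberg adjustment over all 12,939 clusters. A call needed 2-fold and an adjusted p under 0.01. Zero variances at clusters listed at 0 were offset by limma. Only 2 replicates per genotype limit the precision, and p-values measure the spread between these samples.

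Named clusters were the one nearest each end, the one highest in Col-0 at each end, the 5 largest called changes in each direction in NRPD1-3xF WT over Col-0, the 5 highest in NRPD1-3xF AAA-YPMF, and those called higher in any mutant or between mutants. The clusters, lists and rules were chosen with earlier results of these data known. Sequence and annotation came from RefSeq TAIR10.1. Words and inverted repeats were counted on both strands of chromosomes 1 to 5, after the levels had been seen.

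Same-numbered replicates did not pair: the correlation of their differences lay between -0.02 and 0.03 over the 9 comparisons. The alternatives tried were a pseudocount of 0.1, a mean of at least 1 RPKM, a replicate block, a fit over all 12 libraries, no variance trend, an adjusted p under 0.05, ends of 0.5 Mb, scaling to the same median, NRPD1-3xF WT in place of Col-0, and leaving out each replicate.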

Additional observations from a re-analysis of the deposited data

How the results depend on the processing

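Counts of lower calls against Col-0 kept within 1.5 times of the main count under the pseudocount of 0.1, the filter, the replicate block, the fit over all 12 libraries, no variance trend, an adjusted p under 0.05 and each left-out replicate. With the replicate block, nrpd1-3 had 529 lower and NRPD1-3xF WT 72 lower and 6 higher, and the block moved no count by over 1.5 times. With a replicate left out, lower calls ranged from 417 to 529 in NRPD1-3xF AAA-YPMF, 404 to 529 in NRPD1-3xF CYC-AAAA, 410 to 529 in clsy quad, 399 to 529 in nrpd1-3 and 70 to 76 in NRPD1-3xF WT. Higher calls ranged from 1 to 2 in NRPD1-3xF AAA-YPMF and NRPD1-3xF CYC-AAAA, 0 to 2 in clsy quad and nrpd1-3 (0 without either Col-0 replicate), and 6 to 15 in NRPD1-3xF WT (15 without its replicate 2). A lone sample was assumed to vary like the other genotype.

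Ends of 0.5 Mb, with 256 clusters, had 251 lower in NRPD1-3xF AAA-YPMF, 252 in NRPD1-3xF CYC-AAAA, clsy quad and nrpd1-3, and 31 in NRPD1-3xF WT, with 1 higher in each mutant and 0 in NRPD1-3xF WT; fewer clusters were counted. A pseudocount of 0.1 gave 18 higher in NRPD1-3xF WT. Against NRPD1-3xF WT in place of Col-0, NRPD1-3xF AAA-YPMF and NRPD1-3xF CYC-AAAA each had 507 lower and 2 higher.

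NRPD1-3xF AAA-YPMF over nrpd1-3 had 10 higher in the fit over all 12 libraries, 2 with the filter (11 clusters tested), 5 at an adjusted p under 0.05, and 0 to 11 with a replicate left out (11 without its replicate 1, 8 without its replicate 2). NRPD1-3xF CYC-AAAA over nrpd1-3 had 0 to 2 (2 without either of its own replicates). NRPD1-3xF AAA-YPMF over NRPD1-3xF CYC-AAAA had 3 in the fit over all 12 libraries and 2 with the filter. The absence of calls between mutants thus depended on these settings. No count in this section is set against the share of all clusters called under the same setting.

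The percent of Col-0 left by the median cluster was 1.06% in NRPD1-3xF AAA-YPMF, 0.46% in NRPD1-3xF CYC-AAAA, 0.169% in clsy quad, 0% in nrpd1-3 and 92.3% in NRPD1-3xF WT. Without the highest 1% of clusters it was 1.52% in NRPD1-3xF AAA-YPMF, 1.29% in NRPD1-3xF CYC-AAAA, 0.848% in clsy quad, 0.942% in nrpd1-3 and 90.3% in NRPD1-3xF WT. Ends of 0.5 Mb gave 1.24% in NRPD1-3xF AAA-YPMF, 0.878% in NRPD1-3xF CYC-AAAA and 0.631% in clsy quad. Without the 2 clusters that rose in all mutants, an alternative chosen after seeing the data, it was 0.953% in NRPD1-3xF AAA-YPMF, 0.544% in NRPD1-3xF CYC-AAAA, 0.449% in clsy quad and 0.398% in nrpd1-3. With a replicate left out the ranges were 1.32 to 1.41% in NRPD1-3xF AAA-YPMF, 1.1 to 1.15% in NRPD1-3xF CYC-AAAA, 0.722 to 0.797% in clsy quad, 0.741 to 0.894% in nrpd1-3 and 78.5 to 87.1% in NRPD1-3xF WT. The gap between clusters near ends and the rest, NRPD1-3xF WT minus Col-0, was -0.32 by the mean in place of the median and -0.3 to -0.27 with a replicate left out. Low levels in the mutants are limited by depth: a median of 0 or 0.1 RPKM is too low to rank them.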

Other observations

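In 2 pairs of clusters less than 1 kb apart, one fell and the other rose in NRPD1-3xF WT. Near the high-position end of chromosome 3, merged_3_22476518 fell to 5.66 and 5.53 RPKM in NRPD1-3xF WT, against 127.74 and 132.68 in Col-0, while merged_3_22477258 beside it rose to 17.58 and 18.81 RPKM, against 9.35 and 7.42. The pair lies between ARP7 and MAP65-4, a gene for a microtubule-associated protein. On the short arm of chromosome 2, merged_2_676602 fell to 9.27 and 8.68 RPKM, against 22.42 and 23.81, and merged_2_677502 in the adjoining gene AT2G02520 rose to 16.2 and 17.37 RPKM, against 5.74 and 4.77. Both pairs were picked after their values were seen.

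Several other clusters near ends stayed at mutant level in NRPD1-3xF WT, outside the 5 named by rule. In the non-coding RNA gene AT4G03765, merged_4_378762 had 0.09 and 0 RPKM in NRPD1-3xF WT, against 41.55 and 39.45 in Col-0. At 249 bp from CYP89A9, a cytochrome P450 gene, merged_3_826834 was listed at 0 in both NRPD1-3xF WT libraries, against 30.59 and 34.45 RPKM in Col-0. The 72 clusters that fell had a median of 96.2% of 24-base words found once, against 82.7% for the 458 not called. A further strong cluster, merged_4_18254764, had 187.92 and 165.17 RPKM in NRPD1-3xF WT, against 576.25 and 495.82 in Col-0, and kept 3.8 and 4.07 RPKM in NRPD1-3xF AAA-YPMF, against 0.25 and 0.22 in nrpd1-3.

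The longest perfect inverted repeat near an end, with arms of 434 bases, lay within 1 kb of the named position of merged_2_891847 on chromosome 2.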
